A study of Mus musculus with 24 samples.

Results

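The genes described here are 10 members of the Bcl2 family that the grouping used here places outside the p53 targets: Bcl2, Bcl2l1, Bcl2l10, Mcl1, Bcl2l11, Bak1, Bid, Bad, Bok and Bmf. Whether p53 acts on any of these genes was not tested. They were chosen by name, and all 10 were found among the 56326 features counted in each RNA library, of which 55291 are genes and 1035 are repeat families. The question was how the RNA of each member differed between control and MERVL-KD mouse embryos of 2, 4 and 8 cells, and how it changed from one stage to the next. Parents were 8 weeks old B6D2F1 mice, while the strain tag of the libraries reads BDF2. In the MERVL-KD groups the male pronucleus of the zygote received 3 antisense oligonucleotides (ASOs) against the endogenous retrovirus MERVL, given at 20 µM, and in the control groups it received a scrambled ASO. Both groups were thus injected, cultured in KSOM and freed of the zona pellucida. Each library is a pool of 30 embryos, with 2 libraries for each of the 6 groups, so that values of single embryos were not measured. The tag for embryonic age is 1.5 dpc for the 2-cell libraries and 2.5 dpc for both the 4-cell and the 8-cell libraries. The cleavage stage of the pooled embryos was checked by eye. At the same age, 4-cell pools may thus hold slower embryos than 8-cell pools. The paper reports a developmental delay of MERVL-KD embryos, so this selection may differ between the groups. Its part in the comparisons that use 4-cell or 8-cell libraries was not tested. A library held between 28167085 and 41482526 counts.

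The Bcl2 family sets whether the outer membrane of mitochondria is opened, the step that releases cytochrome c and starts the caspase cascade. Its anti-death members bind and hold the members that promote death. Among the latter, the pore-forming members open the membrane, and the BH3-only members carry a single short helix with which they occupy the groove of the anti-death proteins or activate the pore formers. The balance of these classes is set by protein as well as by RNA, since MCL1 protein is short-lived and BAD is silenced by phosphorylation, and only RNA was measured here. In the files the 10 genes comprise 4 anti-death members (Bcl2, Bcl2l1, Bcl2l10 and Mcl1), 2 pore-forming members (Bak1 and Bok) and 4 BH3-only members (Bcl2l11, Bid, Bad and Bmf).

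The targeted repeat was examined first. MERVL-int, the internal part of MERVL, stood at 67693 and 74781 CPM (counts scaled to library size by TMM) in 2-cell controls and at 1324 and 1228 CPM in 2-cell embryos with MERVL-KD. The MERVL-KD libraries were thus far below the controls, as their labels say. From the 2-cell to the 8-cell stage its log2 fold changes were −5.72, −5.53 and −5.40. The stage labels were compared with marker genes. The 5 markers of the 2-cell stage summed to 639 and 580 CPM in the control 2-cell libraries and to between 6.35 and 22.2 CPM in the control libraries of the later stages. Markers of cells that could adhere to zygotes were low. The 8 cumulus and granulosa markers summed to between 16.7 and 25.9 CPM, with Amhr2 the most abundant in each library. In the control 2-cell libraries Amhr2 was at 15.3 of 19.5 CPM and 19.1 of 22.4 CPM, and with MERVL-KD at 15.3 of 18.3 CPM and 13.5 of 16.7 CPM, the rest coming mainly from Has2, Tnfaip6 and Cyp19a1 (at most 32, 56 and 81 counts). Ptx3 held at most 2 counts and Fshr at most 4 counts in any library.

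Per length of transcript, 1 member dominated the family in control 2-cell embryos. Bcl2l10, a Bcl2 relative that is abundant in oocytes, stood at 281 ± 17.5 CPM per kb of exon (SD, n = 2). Mcl1, which protects cells through a short-lived protein, followed at 31.8 ± 1.82 CPM per kb, and Bcl2l1, the gene of BCL-XL, at 27.5 ± 0.335 CPM per kb. The libraries of these 3 genes did not overlap on that scale. Bcl2l11, the gene of the BH3-only protein BIM, came next at 2.89 ± 0.323 CPM per kb. Bid, whose product links death receptors to mitochondria, stood at 2.03 ± 0.187 CPM per kb. The order below Bad (0.675 ± 0.0198 CPM per kb) was not resolved, since Bok, Bmf and Bak1 overlapped with their neighbours in the order. Bcl2 itself was last, at 0.0823 ± 0.0314 CPM per kb.

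At the later stages Mcl1 led. In control embryos it stood at 76.5 ± 0.413 CPM per kb in 4-cell and at 111 ± 6.16 CPM per kb in 8-cell embryos, above every other member in each library. Bad, a BH3-only gene whose protein answers to survival signals, was second at the 4-cell stage with 7.02 ± 0.709 CPM per kb. Bcl2l10 had dropped to 5.12 ± 1.02 CPM per kb, with its libraries on either side of those of Bcl2l1 at 4.83 ± 0.0301 CPM per kb. At the 8-cell stage Bad, Bok, Bcl2l10 and Bcl2l1, with means between 6.19 and 7.50 CPM per kb, each overlapped with the next in order. Bcl2 and Bak1, the latter a main pore former of most tissues, stayed under 1 CPM in all 12 libraries, with at most 30 counts for Bcl2 and 31 counts for Bak1. By group mean per kb they were the lowest members in all 6 groups, and neither passed the expression filter of the fits of MERVL-KD against control at the 4-cell and 8-cell stages.

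**Figure D1:**
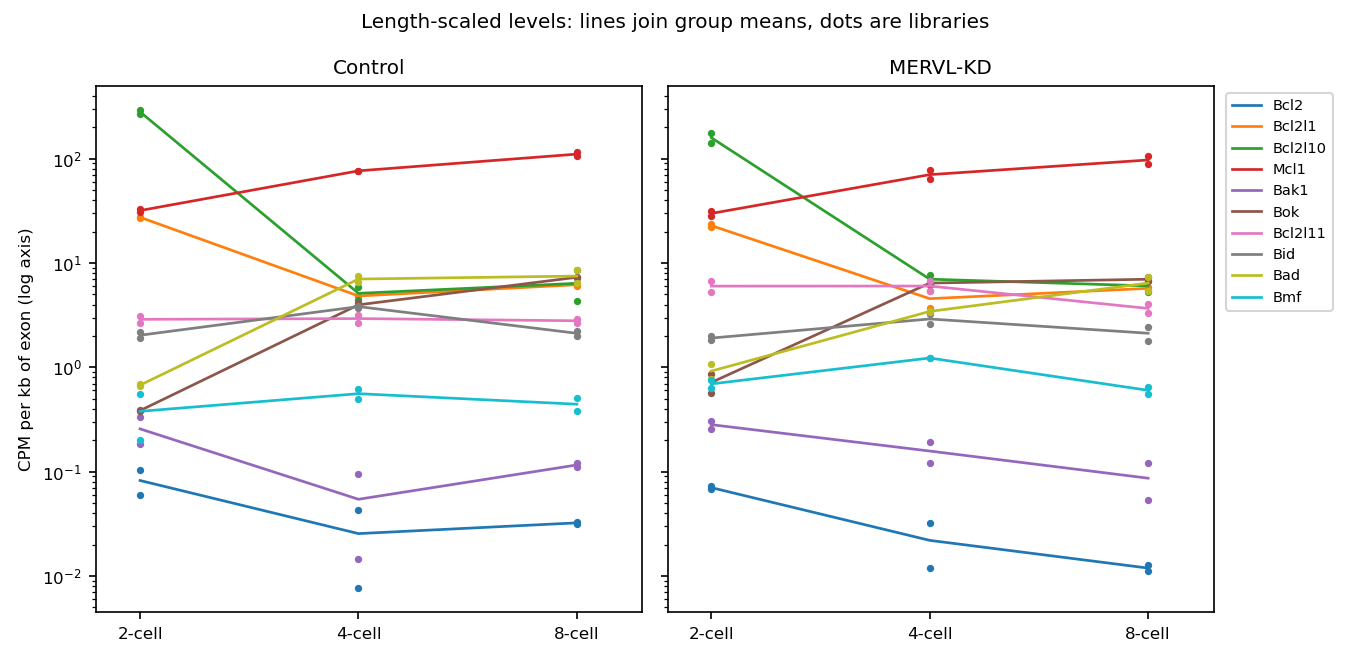
Levels of the 10 members in CPM per kb of exon on a log axis, by stage, in control embryos (left) and MERVL-KD embryos (right). Dots are libraries (2 a group) and lines join group means. Bcl2l10 starts on top at the 2-cell stage in both panels and Mcl1 is on top at the 4-cell and 8-cell stages.

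In 2-cell embryos with MERVL-KD, the most abundant anti-death transcript of the stage was lower and the most abundant BH3-only transcript was higher. Bcl2l10 was counted at 363 and 332 CPM in control libraries and at 177 and 216 CPM in MERVL-KD libraries. Both MERVL-KD libraries lay below both controls, with no overlap. It fell 1.67-fold, with a log2 fold change of −0.74 ± 0.10 (SE) and an adjusted p of 0.000125 (edgeR quasi-likelihood test with Benjamini-Hochberg adjustment over all features tested, as for all adjusted p-values below unless another tool is named). The CPM use scaling factors over all 12 libraries and the fold changes at a stage those of its 4 libraries, so a ratio of the CPM given can differ from the fold change. Since each library is a pool of whole embryos, fewer cells with a transcript and less of it per cell cannot be told apart, for Bcl2l10 or for any other member. Bcl2l11 was counted at 25.0 and 21.3 CPM in control libraries and at 53.8 and 42.6 CPM in MERVL-KD libraries. Both MERVL-KD libraries were higher than both controls. The gene rose 2.21-fold, with a log2 fold change of 1.14 ± 0.15 and an edgeR adjusted p of 7.67e-05.

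Of the 10 members, all tested at this stage, 2 passed at an adjusted p under 0.05. Among all 21347 features tested, 6.74% passed as higher and 7.23% as lower. At least 2-fold in addition was reached by 1 member, Bcl2l11, against 6.47% of all features. The median log2 fold change over the members was 0.11, beside 0.02 over all features tested. The other 8 members did not pass. Mcl1 was counted at 104 and 113 CPM in control libraries and at 108 and 96.5 CPM in MERVL-KD libraries, so its groups overlapped. Its log2 fold change was −0.01 ± 0.10, and 0.28 when scaled by library size alone (edgeR adjusted p = 0.0407, range over the alternatives from 0.0407 to 0.998). Bcl2l1 stood at 125 and 127 CPM in control and at 101 and 109 CPM in MERVL-KD libraries. These groups did not overlap, but the log2 fold change of −0.18 ± 0.09 did not pass (edgeR adjusted p = 0.211), and with library size alone it was 0.11 and did not pass either. Bok, a pore-forming relative of Bax and Bak1, was counted at 0.701 and 0.716 CPM in control and at 1.59 and 1.05 CPM in MERVL-KD libraries. Its groups did not overlap either, but the log2 fold change of 0.98 ± 0.49 did not pass (edgeR adjusted p = 0.213, range over the alternatives from 0.0659 to 0.677). Bmf, a BH3-only gene whose protein is tethered to the cytoskeleton, had a log2 fold change of 0.96 ± 0.41 that did not pass (edgeR adjusted p = 0.142). The first control library held 2.93 CPM against 1.05 CPM in the second control and 3.30 and 3.99 CPM in MERVL-KD libraries. Without that control library the log2 fold change of Bmf was 1.88 and passed (edgeR adjusted p = 0.00167, with a range from 0.00167 to 0.677 over the alternatives). With all libraries kept it passed with library size alone (1.24, edgeR adjusted p = 0.0389) and with all features of 1 count or more tested (0.96, edgeR adjusted p = 0.0471).

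The call of Bcl2l10 was lost in 1 of 15 alternatives, a fit of all 12 libraries at once, with a log2 fold change of −0.82 and an edgeR adjusted p of 0.0669. Over the alternatives its log2 fold change ran from −0.90 to −0.46. The call of Bcl2l11 passed in all 15 alternatives, at log2 fold changes from 0.95 to 1.43, thus not always 2-fold. Of 7 oocyte-derived markers, 3 passed, as lower in MERVL-KD embryos, with log2 fold changes of −0.81 for Bmp15, −0.38 for Padi6 and −0.35 for Nlrp5. The other 4 did not pass, at −0.46 for Ooep, −0.26 for Gdf9, −0.23 for Tle6 and 0.37 for Zp3. Their summed level was 1080 and 969 CPM in control and 618 and 704 CPM in MERVL-KD libraries, with Bmp15 the most abundant and none at 0. Of the 5 markers of the 2-cell stage, 4 passed as lower, and Zscan4d (−0.44) did not pass. Their summed level, led by Zfp352 or Usp17lc and with none at 0, was 309 and 392 CPM in MERVL-KD libraries, against the 639 and 580 CPM of the controls. A marker of oviduct epithelium, Ovgp1, passed as higher (log2 fold change 2.20), and the 3 oviduct markers summed to 0.797 and 1.35 CPM in control and to 5.49 and 3.42 CPM in MERVL-KD libraries. In 1 library of each group 1 of these 3 was at 0, Foxj1 in the first control and Pax8 in the second MERVL-KD library. The part of these markers in the results on Bcl2l10 and Bcl2l11 was not tested.

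**Figure D2:**
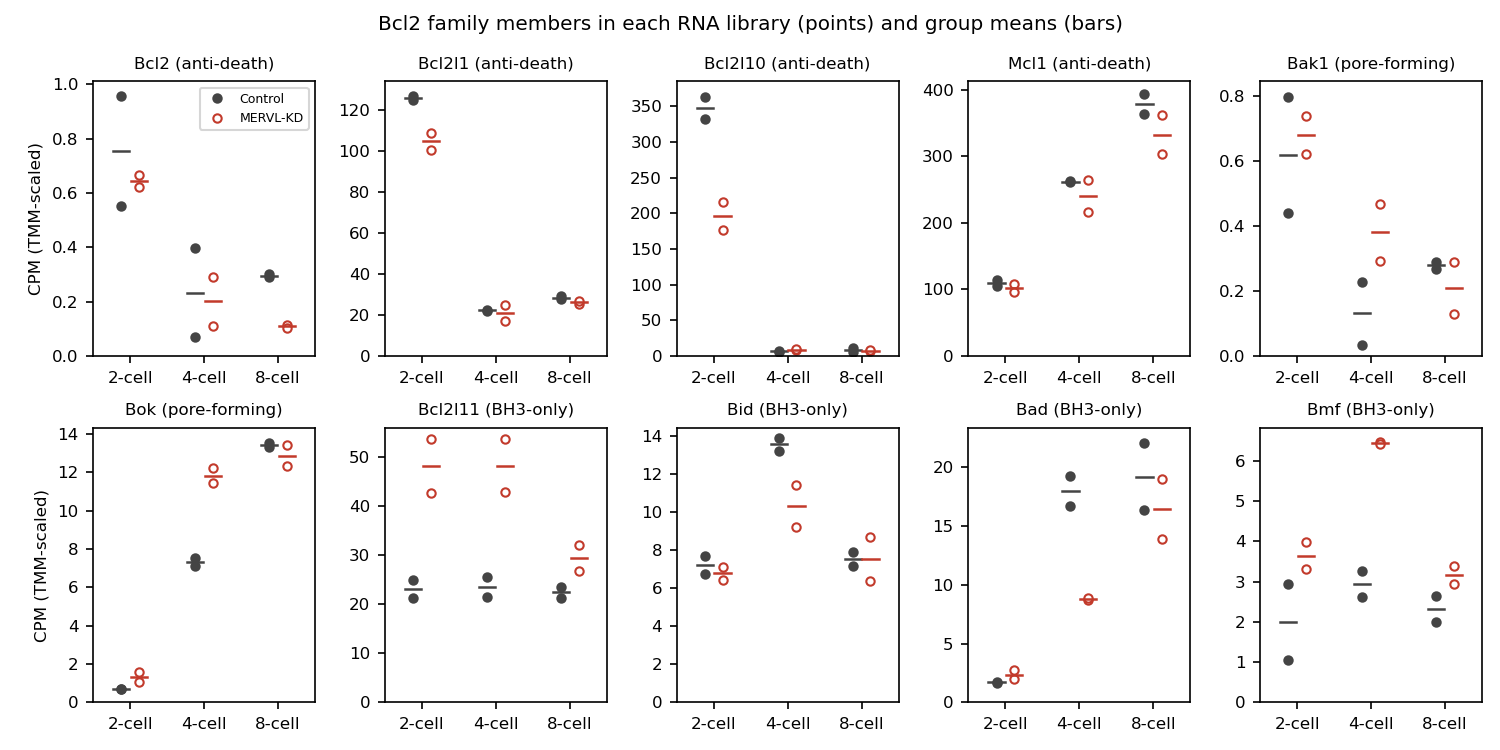
TMM-scaled CPM of each member (vertical axis, starting at 0) by stage. Filled points are control libraries, open points MERVL-KD libraries, and bars group means (2 libraries a group). Bcl2l10 at the 2-cell stage and Bad at the 4-cell stage lie lower in MERVL-KD libraries, and Bcl2l11 lies higher at the 2-cell and 4-cell stages.

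In 4-cell embryos, the members that passed were all BH3-only genes, and they moved in opposite directions. Bcl2l11 was counted at 25.6 and 21.5 CPM in control libraries and at 53.8 and 42.9 CPM in MERVL-KD libraries. Both MERVL-KD libraries were again above both controls, at levels close to those of the 2-cell stage. Bcl2l11 rose 2.06-fold, with a log2 fold change of 1.04 ± 0.16 and an edgeR adjusted p of 0.00174. Bmf was counted at 2.61 and 3.27 CPM in control and at 6.48 and 6.43 CPM in MERVL-KD libraries. Its MERVL-KD libraries lay close together and above the controls. Bmf rose 2.21-fold, with a log2 fold change of 1.14 ± 0.29 and an edgeR adjusted p of 0.0266. Bad was counted at 16.7 and 19.2 CPM in control libraries and at 8.71 and 8.88 CPM in MERVL-KD libraries. Here both MERVL-KD libraries lay below both controls. Bad fell 2.03-fold, with a log2 fold change of −1.02 ± 0.19 and an edgeR adjusted p of 0.00526.

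These 3 members are 2 higher and 1 lower of the 8 tested at this stage, beside 4.83% of 20505 features that passed as higher and 5.75% as lower. All 3 changed at least 2-fold, as did 4.46% of all features. Bad (2.03-fold) and Bcl2l11 (2.06-fold) lay close to that threshold. The median log2 fold change over the 8 members tested was 0.19, beside 0.01 over all features. At an adjusted p under 0.05, without regard to fold, the calls of Bcl2l11 and Bad passed in all 15 alternatives. That of Bmf passed in 11 of 15, with adjusted p from 0.00817 to 0.113. It was lost without the first control library (log2 fold change 0.99, edgeR adjusted p = 0.113), without the first MERVL-KD library (1.13, edgeR adjusted p = 0.0567), without the second (1.15, edgeR adjusted p = 0.0512) and in a fit of all 12 libraries (1.14, edgeR adjusted p = 0.0677).

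Bok lay close to the threshold at the 4-cell stage. It was counted at 7.09 and 7.54 CPM in control and at 12.2 and 11.4 CPM in MERVL-KD libraries. The groups did not overlap, but the log2 fold change of 0.70 ± 0.21 did not pass (edgeR adjusted p = 0.0534, range over the alternatives from 0.0385 to 0.207), although it did in 4 of 15 alternatives. Bcl2l10 was counted at 5.45 and 7.23 CPM in control and at 7.85 and 9.47 CPM in MERVL-KD libraries, a log2 fold change of 0.46 ± 0.25 that did not pass. The anti-death genes Mcl1 and Bcl2l1 had log2 fold changes of −0.12 ± 0.10 and −0.08 ± 0.19 and did not pass either. Bid was at 13.9 and 13.2 CPM in control and 11.4 and 9.23 CPM in MERVL-KD libraries, and its log2 fold change of −0.39 ± 0.20 did not pass. Markers moved at this stage too. Krt8 and Krt18, keratin genes among the 6 markers of later cleavage, passed as higher in MERVL-KD embryos (log2 fold changes 2.45 and 1.41), while the summed level of that list, led by Tfap2c, was 316 and 320 CPM in control and 309 and 306 CPM in MERVL-KD libraries, with none at 0. Of the 4 blood markers Hba-a1 passed as higher (2.70), and their sum was 0.539 and 1.56 CPM in control and 3.79 and 8.15 CPM in MERVL-KD libraries, while the beta-globin genes Hbb-bs and Hbb-bt, at 0 in most libraries, held at most 2 and 4 counts. Of the 5 markers of the 2-cell stage, Zfp352 passed as lower (−1.04), while Zscan4c (2.44), Tcstv3 (0.35), Zscan4d (0.26) and Usp17lc (−0.24) did not pass, with the list summing to 20.7 and 22.2 CPM in control and to 23.7 and 10.1 CPM in MERVL-KD libraries. The part of these markers in the results on Bcl2l11, Bmf and Bad was not tested.

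**Figure D3:**
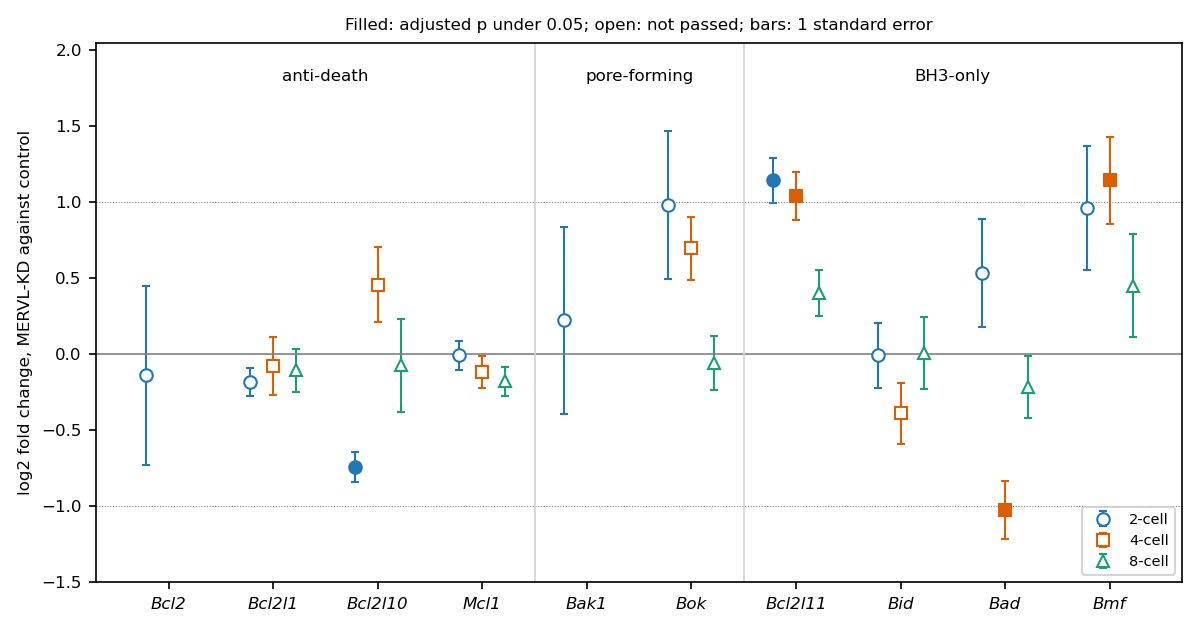
Log2 fold change of MERVL-KD against control (vertical axis) for each member at the 3 stages, with bars of 1 standard error. Filled symbols passed at an adjusted p under 0.05. Bcl2l11 stands at 1.14, 1.04 and 0.40 from the 2-cell to the 8-cell stage, while Bcl2 and Bak1 have a value at the 2-cell stage alone.

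Because these 3 genes passed at the same stage, the windows around their start sites are shown. The RefSeq promoter table (build GRCm38.p6, 250 bases before to 50 bases after a start site) holds 15 entries for 9 of the 10 members, all but Bcl2l10. The entries below are those at the start of the gene as the files place it, given 5′ to 3′ on the gene's own strand. They are reference sequence, from which the genome of B6D2F1 mice differs. Capitals mark GTAAACA (the forkhead motif), GGGCGG (the GC box) and CCAAT, on either strand, with no overlap between the matches shown.
Bcl2l11, chr2:128125788-128126087, plus strand: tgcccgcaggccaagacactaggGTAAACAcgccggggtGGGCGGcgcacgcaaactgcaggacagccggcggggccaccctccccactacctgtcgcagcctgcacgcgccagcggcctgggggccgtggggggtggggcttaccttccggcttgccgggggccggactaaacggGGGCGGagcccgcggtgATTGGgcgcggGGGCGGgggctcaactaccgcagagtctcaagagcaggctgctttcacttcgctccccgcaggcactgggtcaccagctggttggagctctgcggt
Bmf, chr2:118549637-118549936, minus strand: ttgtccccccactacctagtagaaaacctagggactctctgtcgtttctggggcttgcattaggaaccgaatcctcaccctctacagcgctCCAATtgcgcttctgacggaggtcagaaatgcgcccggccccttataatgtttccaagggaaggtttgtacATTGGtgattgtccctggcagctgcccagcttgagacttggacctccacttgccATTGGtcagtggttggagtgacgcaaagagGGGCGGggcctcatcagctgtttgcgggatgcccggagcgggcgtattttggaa
Bad, chr19:6941611-6941910, plus strand: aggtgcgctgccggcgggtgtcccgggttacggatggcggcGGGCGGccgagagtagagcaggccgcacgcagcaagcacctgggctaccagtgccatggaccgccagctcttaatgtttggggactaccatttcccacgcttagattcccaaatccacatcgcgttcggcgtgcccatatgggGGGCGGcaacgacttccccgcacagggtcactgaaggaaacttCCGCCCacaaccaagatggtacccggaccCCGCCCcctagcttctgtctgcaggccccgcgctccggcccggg
The forkhead motif, which FOXO proteins bind, occurs once in the Bcl2l11 window and in none of the other 14 entries, while 3.66% of 32544 mouse promoters of the same length hold it. GC boxes occur in 8 of the 15 entries and in 35.9% of all promoters. The Bcl2l11 window has 3, that of Bad 4 and that of Bmf 1. CCAAT occurs in 5 entries and in 37.4% of all promoters, with 3 matches in the Bmf window. The p53 response element, sought with a spacer of at most 13 bases, occurs in 0 of the 15 entries and in 0.0737% of all promoters. TATAAA and CACGTG, held by 13.6% and 7.17% of all promoters, occur in 0 of the 15. These are matches of letters, and no binding was measured here.

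In 8-cell embryos 0 of the 8 members tested passed with edgeR, beside 1.62% of 19153 features that passed as higher, 3.51% as lower, and 1.7% that passed with at least a 2-fold change. At an unadjusted p under 0.05 there was 1 member, Bcl2l11, and DESeq2 also gave 0. Bcl2l11 was counted at 21.4 and 23.5 CPM in control libraries and at 26.8 and 32.2 CPM in MERVL-KD libraries. The MERVL-KD libraries were still above the controls, but closer to them than at the earlier stages. Its log2 fold change of 0.40 ± 0.15 had an edgeR adjusted p of 0.169. Mcl1 was counted at 363 and 393 CPM in control and at 303 and 362 CPM in MERVL-KD libraries, with a log2 fold change of −0.18 ± 0.10 that did not pass (edgeR adjusted p = 0.340). Without the second MERVL-KD library it was −0.31 and passed (edgeR adjusted p = 0.00816, range over the alternatives from 0.00816 to 0.840). Bad was counted at 22.1 and 16.3 CPM in control and at 19.0 and 13.9 CPM in MERVL-KD libraries. These groups overlapped, unlike at the 4-cell stage. Bok stood at 13.4 and 13.5 CPM in control and 12.3 and 13.4 CPM in MERVL-KD libraries, level with each other. The remaining members tested had log2 fold changes between −0.11 (Bcl2l1) and 0.45 (Bmf). The median over the 8 members was −0.06, beside 0.01 over all features. Of the 6 markers of later cleavage, Pou5f1 and Nanog passed as lower (log2 fold changes −0.68 and −0.65), with the list, which held none at 0, summing to 472 and 461 CPM in control and to 332 and 340 CPM in MERVL-KD libraries, and their part in these values was not tested.

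Whether an effect of MERVL-KD differed between stages was tested as such, in a fit of all 12 libraries. Bad passed this test between the 4-cell and 2-cell stages. It was counted at 1.69 and 1.76 CPM in control and at 2.73 and 1.98 CPM in MERVL-KD libraries at the 2-cell stage, a log2 fold change of 0.54 ± 0.36 that did not pass, against −1.02 at the 4-cell stage. MERVL-KD libraries thus lay above the controls at the 2-cell stage and below them at the 4-cell stage. In the fit of all 12 libraries, scaled together, the difference of the MERVL-KD effects was −1.48 ± 0.35 (edgeR adjusted p = 0.0169, range over the alternatives from 0.00164 to 0.109). It was lost without the first control 2-cell library (−1.44, edgeR adjusted p = 0.0548), without the first MERVL-KD 2-cell library (−1.23, edgeR adjusted p = 0.109) and without the second control 4-cell library (−1.37, edgeR adjusted p = 0.0547). Bad was the 1 member of 10 that passed here, beside 4.12% of 24850 features. For Bcl2l10 the difference was 1.28 ± 0.37 and did not pass (edgeR adjusted p = 0.0966, range over the alternatives from 1.92e-07 to 0.374), although it did in 3 of 18 alternatives. So the MERVL-KD effect on Bcl2l10 at the 2-cell stage was not shown to differ from that at the 4-cell stage.

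Between the 8-cell and 2-cell stages 0 of the 10 members passed with edgeR, beside 3.98% of all features, and 2 had an unadjusted p under 0.05, with 0 by DESeq2. These 2 were Bok and Bcl2l11. Bok had a difference of −0.97 ± 0.37 (edgeR adjusted p = 0.177, range over the alternatives from 0.0765 to 0.603). Bcl2l11 had a difference of −0.67 ± 0.23 (edgeR adjusted p = 0.126). It passed without the second MERVL-KD 8-cell library (−0.90, edgeR adjusted p = 0.0485, range over the alternatives from 0.0341 to 0.458) and, with all libraries kept, with library size alone (−0.90, edgeR adjusted p = 0.0341). Bcl2l10 had a difference of 0.75 ± 0.37 and passed without the first control 8-cell library (1.23, edgeR adjusted p = 0.00639, range over the alternatives from 0.00639 to 0.717) and, with all libraries kept, with all features of 1 count or more tested (0.73, edgeR adjusted p = 0.0131). Between the 8-cell and 4-cell stages 0 passed with edgeR, beside 0.64% of all features, and 3 had an unadjusted p under 0.05, with 0 by DESeq2. The passing of Bcl2l11 at the 2-cell and 4-cell stages and not at the 8-cell stage was thus not shown to be a difference between stages, except under the 2 alternatives named for Bcl2l11.

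The next comparisons are between stages. Like more than 50% of all features, 6 of the 10 members passed between the 2-cell and 4-cell stages in control embryos, 4 higher and 2 lower at the 4-cell stage, where 26.6% of all features passed as higher and 28.1% as lower. Bcl2l10 fell from 363 and 332 CPM to 5.45 and 7.23 CPM, a log2 fold change of −5.78 ± 0.30. Bcl2l1 fell from 125 and 127 CPM to 22.1 and 22.3 CPM (−2.51 ± 0.15). The members that rose were 1 anti-death, 1 pore-forming and 2 BH3-only genes, with log2 fold changes of 1.26 ± 0.11 for Mcl1, 3.36 ± 0.28 for Bok, 3.38 ± 0.26 for Bad and 0.91 ± 0.23 for Bid. Libraries of the 2 stages did not overlap for any of these 6 genes. Bcl2l11, with a log2 fold change of 0.03 ± 0.17, kept close to 1 level. Bmf and Bak1 did not pass either, but Bmf passed without the first control 2-cell library (1.46, edgeR adjusted p = 0.0131, range over the alternatives from 0.0131 to 1.00), and Bak1 without the first control 4-cell library (−4.02, edgeR adjusted p = 0.0391, range over the alternatives from 0.0391 to 0.349), a value that rests on the 1 count of Bak1 in the other control 4-cell library.

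In MERVL-KD embryos 6 members passed between these stages as well, 4 higher and 2 lower, beside 26.9% and 26.8% of all features. They were Bcl2l10 (log2 fold change −4.50 ± 0.28), Bcl2l1 (−2.33 ± 0.15), Mcl1 (1.23 ± 0.11), Bok (3.15 ± 0.26), Bad (1.89 ± 0.24) and Bid (0.61 ± 0.23), the 6 genes named for the controls. Bmf did not pass (0.82 ± 0.38, edgeR adjusted p = 0.0733, range over the alternatives from 0.0206 to 0.253), but did with counts halved (0.84, edgeR adjusted p = 0.0379) and in a fit of the 4 libraries alone (0.86, edgeR adjusted p = 0.0206). Bad rose in both, from under 3 CPM to 16.7 and 19.2 CPM in control and to 8.71 and 8.88 CPM in MERVL-KD embryos. The call of Bid was lost in 6 of 15 alternatives. With all libraries kept it was lost with library size alone (0.48, edgeR adjusted p = 0.104), with all features of 1 count or more tested (0.58, edgeR adjusted p = 0.0689) and with 10 counts or more in every library (0.46, edgeR adjusted p = 0.0760). It was also lost without the first MERVL-KD 2-cell library (0.71, edgeR adjusted p = 0.0579), without the second (0.56, edgeR adjusted p = 0.135) and without the first MERVL-KD 4-cell library (0.44, edgeR adjusted p = 0.217, range over the alternatives from 0.0167 to 0.217). These comparisons share their libraries with the comparisons of MERVL-KD and control above.

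Fewer members passed from the 4-cell to the 8-cell stage than from the 2-cell to the 4-cell stage. The 4-cell and 8-cell libraries carry the same age tag. Rises and falls between them are therefore differences between pools chosen by stage, and were not shown to be changes over time. In control embryos 3 members passed, 2 higher and 1 lower, beside 3.12% of all features higher and 3.02% lower. Mcl1 rose from 263 and 261 CPM to 363 and 393 CPM (0.53 ± 0.11, edgeR adjusted p = 0.00617), and Bok from 7.09 and 7.54 CPM to 13.4 and 13.5 CPM (0.88 ± 0.23, edgeR adjusted p = 0.0260). Bid fell from 13.9 and 13.2 CPM to 7.15 and 7.91 CPM (−0.85 ± 0.23, edgeR adjusted p = 0.0294). Leaving out any 1 of the 4 control libraries of these stages ended the calls of Bok and Bid, and that of Bok was lost also with library size alone (0.67, edgeR adjusted p = 0.0851). Without the first and second 4-cell and the first and second 8-cell library in turn, the log2 fold change of Bok was 0.83, 0.93, 0.91 and 0.86 (edgeR adjusted p from 0.107 to 0.169) and that of Bid −0.81, −0.88, −0.76 and −0.93 (edgeR adjusted p from 0.102 to 0.202). Over all alternatives the adjusted p ran from 0.00321 to 0.169 for Bok and from 0.00881 to 0.202 for Bid. Mcl1 was lost without the second 8-cell library (0.47, edgeR adjusted p = 0.0700, range over the alternatives from 9.26e-05 to 0.0700), and Bcl2l10, with a log2 fold change of 0.32 that did not pass, passed without the same library (0.73, edgeR adjusted p = 0.0401, range over the alternatives from 0.0401 to 0.942).

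In MERVL-KD embryos 3 members passed between the 4-cell and 8-cell stages, 2 higher and 1 lower, beside 2.22% and 2.4% of all features. Bcl2l11 fell from 53.8 and 42.9 CPM to 26.8 and 32.2 CPM (−0.71 ± 0.16, edgeR adjusted p = 0.0152). Bad rose from 8.71 and 8.88 CPM to 19.0 and 13.9 CPM (0.90 ± 0.22, edgeR adjusted p = 0.0243), and Mcl1 rose with a log2 fold change of 0.47 ± 0.11 (edgeR adjusted p = 0.0187). The largest log2 fold change of a member, −1.03 ± 0.38 for Bmf, did not pass (edgeR adjusted p = 0.137). Bmf was at 6.48 and 6.43 CPM in 4-cell and at 2.94 and 3.39 CPM in 8-cell libraries. These are steps within MERVL-KD embryos, and the MERVL-KD effects at the 8-cell and 4-cell stages were not shown to differ for Bcl2l11, Bad or Mcl1. Each of the 3 calls was lost without the first MERVL-KD 4-cell library, with log2 fold changes of −0.54 for Bcl2l11 (edgeR adjusted p = 0.139), 0.89 for Bad (edgeR adjusted p = 0.0957) and 0.33 for Mcl1 (edgeR adjusted p = 0.198). Bcl2l11 was lost also without the first 8-cell library (−0.58, edgeR adjusted p = 0.0922). Bad was lost also without the second 4-cell library (0.95, edgeR adjusted p = 0.0630) and without the first 8-cell library (0.66, edgeR adjusted p = 0.195), and Mcl1 without the second 8-cell library (0.36, edgeR adjusted p = 0.162). In a fit of the 4 libraries of these stages alone, Bcl2l11 (−0.72, edgeR adjusted p = 0.0507), Bad (0.89, edgeR adjusted p = 0.0627) and Mcl1 (0.46, edgeR adjusted p = 0.0919) were lost, as were Bad (0.77, edgeR adjusted p = 0.0598) and Mcl1 (0.33, edgeR adjusted p = 0.0611) with library size alone. Over the alternatives the adjusted p ran from 0.000742 to 0.139 for Bcl2l11, from 0.00377 to 0.195 for Bad and from 0.00180 to 0.198 for Mcl1. Bcl2l1 did not pass (0.33 ± 0.14) but did without the first 4-cell library (0.64, edgeR adjusted p = 0.0203, range over the alternatives from 0.0203 to 0.806).

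Taken as shares of the summed CPM per kb of the 10 members, with no test, these changes altered the make-up of the family. In 2-cell embryos Bcl2l10 made up 81.8% and 80.1% of the sum in controls, against 68.7% and 74.0% with MERVL-KD. The MERVL-KD libraries were lower, and Bcl2l10 was still the largest share in each of the 4. In control 4-cell libraries it made up 4.23% and 5.53%, while Mcl1 made up 73.8% and 72.2%. The 4 anti-death members together exceeded the 4 BH3-only members 54.1-fold and 60.6-fold in 2-cell controls, against 18.9-fold and 26.2-fold with MERVL-KD. The ratio was lower in both MERVL-KD libraries, with Bcl2l10 in its numerator and Bcl2l11 in its denominator. At the 4-cell stage it was 6.09 and 5.98 in controls, against 5.17 and 7.02 with MERVL-KD, with the groups overlapping. At the 8-cell stage it was 8.78 and 10.5 in controls, against 7.23 and 9.98 with MERVL-KD, again overlapping. A ratio of RNA levels is not a ratio of proteins, which were not measured here.

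**Figure D4:**
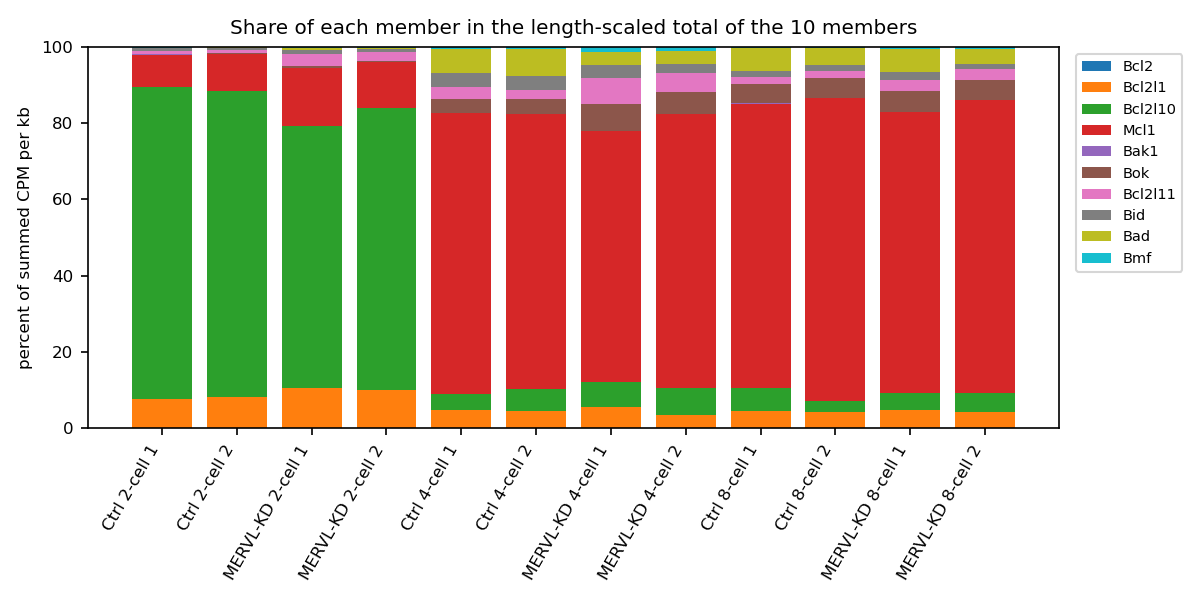
Share of each member in the summed CPM per kb of the 10 members (percent, each bar summing to 100) in the 12 libraries, with no error since each bar is 1 library. Bcl2l10 fills 81.8% and 80.1% of the control 2-cell bars and 68.7% and 74.0% of the MERVL-KD 2-cell bars, and Mcl1 is the largest share at the later stages.

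The 3 relatives grouped here as p53 targets are given for comparison. Bbc3, the gene of the BH3-only protein PUMA, was counted at 1.08 and 0.991 CPM in control and at 3.80 and 4.27 CPM in MERVL-KD 2-cell libraries. Both MERVL-KD libraries were higher, and Bbc3 rose at the 3 stages, with log2 fold changes of 2.04 ± 0.33, 1.85 ± 0.20 and 1.07 ± 0.21. Pmaip1, the gene of NOXA, rose at the 3 stages with 1.76 ± 0.15, 2.37 ± 0.37 and 2.17 ± 0.21. Bax, the pore former, did not pass at any stage, at log2 fold changes of 0.23 ± 0.35, 0.29 ± 0.23 and 0.15 ± 0.22. No test compared these genes with the 10 members.

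The rest of the death pathway was read from lists of 44 further genes, of which 36 were tested at each stage. At the 2-cell stage 7 of them passed with edgeR, each as lower, with a median log2 fold change of −0.03 over the 36, beside 0.02 over all features, of which 7.23% passed as lower. Usp9x, which removes ubiquitin from MCL1, was counted at 1200 and 1247 CPM in control and at 477 and 630 CPM in MERVL-KD 2-cell libraries. Both MERVL-KD libraries were far below the controls, and Usp9x fell 2.09-fold (−1.06 ± 0.10, edgeR adjusted p = 9.61e-06). Casp8, the caspase that cleaves BID, was counted at 3.63 and 2.31 CPM in control and at 1.05 and 1.24 CPM in MERVL-KD libraries. It too was lower in both and fell with a log2 fold change of −1.29 ± 0.38 (edgeR adjusted p = 0.0327, range over the alternatives from 0.00947 to 0.292). Casp8 was lost without the first control library (−0.93, edgeR adjusted p = 0.292), without the first MERVL-KD library (−1.18, edgeR adjusted p = 0.0783) and in 3 further alternatives, DESeq2 among them. The other 5, at under 2-fold and named after their values had been seen, were Bik (−0.90), Aifm1 (−0.61), Bcap31 (−0.46), Birc5 (−0.38) and Birc3 (−0.36). They comprise a BH3-only gene, a protein released from mitochondria, a partner of BCL2 at the endoplasmic reticulum and a pair of inhibitors of apoptosis. The sizes of these 5 changes are relative to TMM scaling. With library size alone the median over all features at this stage was 0.31, and results of the alternatives are not given for these 5.

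At the 4-cell stage 2 of the 36 passed, each as lower, beside 5.75% of all features, with a median of −0.17. These were the anti-death gene Bcl2l2 (−0.82) and Bcl2l13 (−0.33), also named after their values had been seen. At the 8-cell stage 1 of the 36 passed, as lower, beside 3.51% of all features, Birc3 (−0.76, named likewise), with a median of 0.03. By list, the 7 genes of the 2-cell stage were 1 of 8 tested among the other Bcl2 family genes, 1 of 5 caspases, 1 of 6 apoptosome and released proteins, 2 of 6 inhibitors of apoptosis, 1 of 6 channel partners and BCL2-binding proteins and 1 of 5 genes of MCL1 turnover. The 2 genes of the 4-cell stage are other Bcl2 family genes, and the 1 of the 8-cell stage is an inhibitor of apoptosis. The lower Usp9x therefore stood beside an Mcl1 transcript with a log2 fold change of −0.01 at the 2-cell stage, and MCL1 protein was not measured here.

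**Figure D5:**
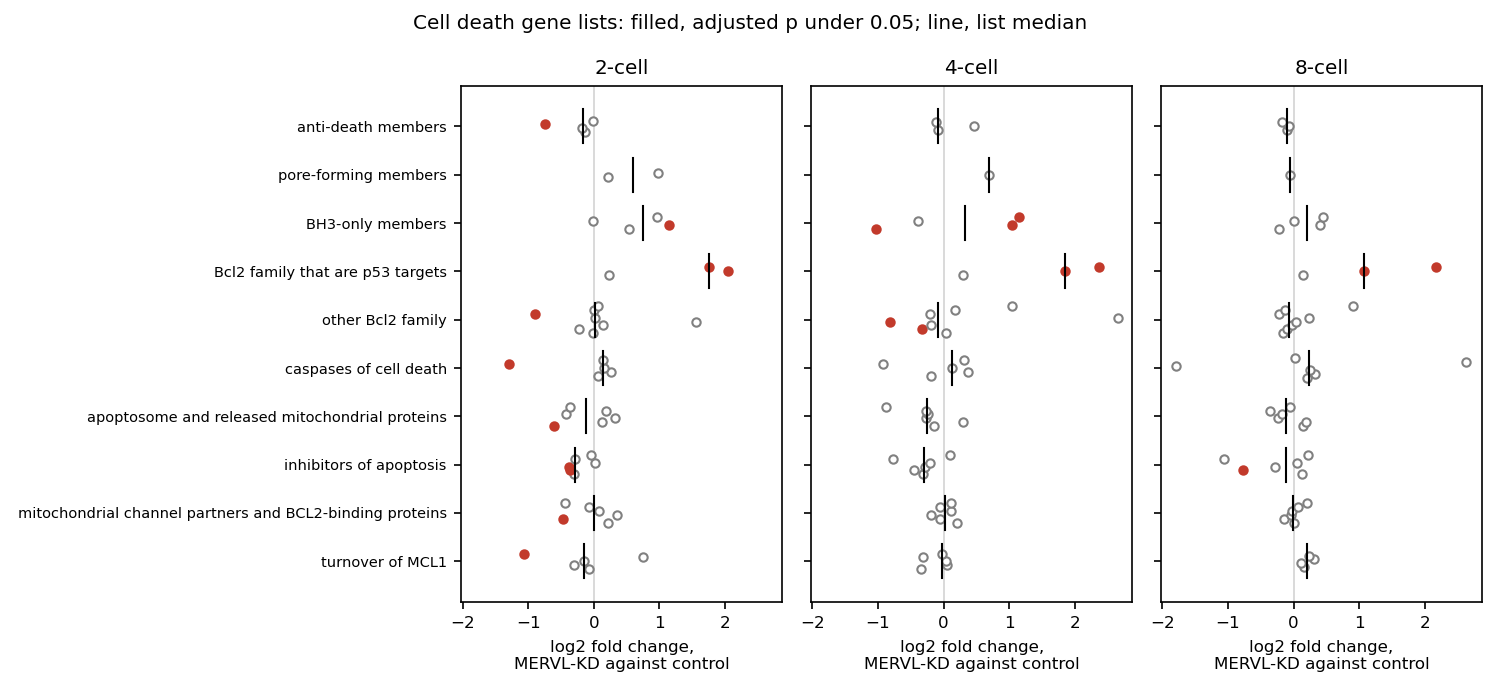
Log2 fold change of MERVL-KD against control (horizontal axis) for each tested gene of the cell death lists at the 3 stages. Filled points passed at an adjusted p under 0.05, and the line is the median of the list. Among the 44 genes outside the members and the p53 targets, the points that passed all lie below 0, with 7, 2 and 1 from the 2-cell to the 8-cell stage.

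Position and sequence bear on how far single members can be read. The strand setting of the counting is not given in the sources used here, so reads of a gene and of a gene overlapping it on the other strand cannot be told apart. Nor is it given whether a read in shared bases was counted for both genes or left out. Bad, at chr19:6941861-6951899 of GRCm38, shares 524 bases, or 20.5% of its exonic length, with Gpr137, which held 217 to 453 counts a library. Bad itself held 53 to 115 counts in the 2-cell libraries, fewer than Gpr137. The values of Bad there, and its differences from the 2-cell stage, may thus include reads of Gpr137 or lack reads of the shared bases. In MERVL-KD 4-cell libraries Bad held 304 and 317 counts, within the range of Gpr137. The call of Bad at the 4-cell stage may thus be affected in either way too. Bid, at chr6:120891930-120916853, shares 628 bases (17.7%) with Bcl2l13, which held 4306 to 6069 counts against 197 to 490 counts for Bid. The calls of Bid between stages may thus include reads of Bcl2l13 or lack reads of the shared bases. Bak1, with 1 to 31 counts a library, shares 437 bases (18.2%) with Ggnbp1, which held 2 to 61 counts and so can exceed Bak1, and 177 bases with Gm50253 (at most 3 counts). Bcl2, with 2 to 30 counts, shares 558 bases with D630008O14Rik, which held at most 12 counts. For Bcl2l1, Bcl2l10, Mcl1, Bcl2l11, Bok and Bmf no overlapping gene was found in the files. The 3 MERVL ASOs and the scrambled ASO were sought over the 347148 bases of the 10 genes on both strands. With up to 4 mismatches 1 site was found, for a MERVL ASO in an intron of Bcl2 (chr1:106667549-106667568), on the strand with which Bcl2 RNA could not pair. The other 9 genes held 0 sites.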

How the data were processed

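The authors made stranded, paired-end total RNA libraries, aligned reads to GRCm38/mm10 with STAR 2.5.3a keeping unique alignments, and deposited raw counts per GENCODE vM25 gene and RepeatMasker family from featureCounts, with exonic lengths. From 71.8% to 74.7% of genes with 1 to 50 counts had even counts, so both mates of a pair were mostly counted, which makes counting error larger than for as many single reads. From the deposited counts, MERVL-KD was compared with control in the 4 libraries of each stage, and stages and their differences in 1 fit of all 12, with edgeR 4.0.16 in R 4.3.3 (filterByExpr, TMM, robust quasi-likelihood). P-values were adjusted over all features by the Benjamini-Hochberg method and passed under 0.05. With 2 libraries a group they rest on the spread between those pools, estimated for each feature with information shared across all features tested. Named genes are the members, the 3 p53-target relatives, MERVL-int, pathway genes that passed with at least 2-fold change, and, for likeness, 2 genes a member. Other pathway genes and the markers named were chosen after their values were seen. Alternatives, DESeq2 1.42.0 among them, are given at the end. The members and lists were chosen with earlier results of these data known. The ATAC-seq libraries were not used here.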

Additional observations from a re-analysis of the deposited data

Results flagged for a closer look

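These results passed a test of a difference in the MERVL-KD effect (log2) between stages, in the fit of all 12 libraries, whose scaling differs from that of the fits by stage. For Bad the difference of the 4-cell from the 2-cell stage was −1.48. For Usp9x the same difference was 1.11, and between the 8-cell and 2-cell stages it was 1.37. For Casp8 the difference between the 8-cell and 2-cell stages was 3.99, with 1 and 4 counts in 8-cell controls, against 24 and 16 counts in 8-cell embryos with MERVL-KD. It did not pass in 9 of 17 alternatives, namely library size alone (3.77, edgeR adjusted p = 0.0551), the replicate number as a block (3.85, edgeR adjusted p = 0.0589) and each left-out library but the second MERVL-KD 8-cell one (log2 differences over the alternatives from 3.29 to 5.10, edgeR adjusted p over the alternatives from 0.0232 to 0.192).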

How the results depend on the processing

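Alternatives were DESeq2, DESeq2-style size factors, library size alone, testing all features with 1 count or more, testing those with 10 counts or more in every library, a non-robust fit, features above 1% of counts or repeat families left out, counts halved, other samples in the fit, a 2-fold threshold, the replicate number as a block, and each library left out in turn, where the lone library of a group is assumed to vary like the others. Of 1513 values of members, 1378 kept direction and side of the threshold, 36 lost a call, 21 gained one, 77 changed sign without passing in either, and 1 reversed: Mcl1 in 2-cell embryos was 0.28 with library size alone. The cause of changes below was not tested.

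At the 2-cell stage 2 members passed, but 4 with library size alone, 1 in a fit of all 12 libraries and 1 with at least 2-fold change. From the 4-cell to the 8-cell stage in MERVL-KD embryos 3 passed, but 1 with library size alone and 0 in a fit of the 4 libraries alone. With at least 2-fold change 0 passed for that step, and 0 in place of 3 in control embryos. Of differences between stages, 1 member passed for the 4-cell against the 2-cell stage, but 2 with at least 1 count, 2 in a non-robust fit and 2 with counts halved. For the 8-cell against the 2-cell stage 0 passed, but 1 with library size alone and 1 with at least 1 count. With a library left out, counts ran from 2 to 3 for MERVL-KD at the 2-cell and the 4-cell stage, from 0 to 1 at the 8-cell stage, from 6 to 7 and from 5 to 6 from the 2-cell to the 4-cell stage in control and MERVL-KD embryos, were 1 in each case from the 4-cell to the 8-cell stage in control embryos, and ran from 1 to 2 for that step in MERVL-KD embryos, from 0 to 1 for the difference between the 4-cell and 2-cell stages, and from 0 to 1 for that between the 8-cell and 2-cell stages.

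With the replicate number as a block, the counts of members that passed were 2, 3 and 0 for MERVL-KD at the 3 stages, 6 and 3 for the steps in control, 6 and 3 in MERVL-KD embryos, and 1, 0 and 0 for differences between stages, as without it. Same-numbered libraries did not deviate together (r of −0.0354, 0.00605 and 0.0224 at the 3 stages). These values cannot show whether same-numbered pools were collected together, which the labels do not give.

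Library size alone moved the median log2 fold change of all features from 0.02 to 0.31 at the 2-cell stage, from 0.01 to 0.14 at the 8-cell stage, from −0.02 to 0.13 and from −0.03 to −0.23 for the steps in control, from −0.04 to −0.17 for each step in MERVL-KD embryos, and from 0.04 to −0.26 and −0.20 for differences from the 2-cell stage. All fold changes above are relative to TMM scaling. It moved the count of features from 2982 (48.2% higher) to 5283 (86.7%) at the 2-cell stage and from 1025 (59.9%) to 1618 (14.3%) for the difference between the 4-cell and 2-cell stages. The share higher went from 45.6% to 57.2% at the 4-cell and 31.6% to 62.5% at the 8-cell stage, from 48.1% to 17.8% from the 4-cell to the 8-cell stage in MERVL-KD, and from 58.9% to 22.4% and 47.2% to 62.5% for the other two differences. From the 4-cell to the 8-cell stage in control, 776 higher and 751 lower features became 283 and 1887 with library size alone and 1044 and 629 with DESeq2-style size factors. With at least 1 count, 983 features became 1685 at the 8-cell stage and 159 became 469 for the difference between the 8-cell and 4-cell stages. DESeq2 gave 2324 in place of 1527 and 1902 in place of 1148 from the 4-cell to the 8-cell stage in control and MERVL-KD, and 1667 in place of 1025 and 467 in place of 159 for the differences of the 4-cell stage from the 2-cell and the 8-cell stage. The 4 libraries of that step in MERVL-KD alone gave 374. With a library left out, counts ran from 650 to 1912 at the 8-cell stage, 662 to 746 and 389 to 1108 for the later step in control and MERVL-KD, and 535 to 990, 567 to 906 and 102 to 285 for the differences.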

Other observations

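Genes whose log2(CPM + 0.5) followed a member most closely over the 12 libraries were sought for the 8 members with a mean of at least 1 CPM. The r values are descriptions, and since the libraries fall into the 2-cell stage and the later stages, a gene with the same step between them scores high. For Bcl2l10 they were Lef1 (Pearson r = 0.999) and Fbxo8 (0.997), and for Bcl2l1 Trim37 (0.996) and Ppp1r21 (0.995). For Mcl1 they were Hnrnpa1 (0.998) and Ptma (0.996), for Bad Hnrnph1 (0.994) and Psmg2 (0.993), and for Bok Sidt2 (0.999) and Edc3 (0.997). The other members, which lack so large a step, had lower values. For Bcl2l11 they were Akap5 (0.936) and Gm17244 (0.931), for Bid Gm45871 (0.952) and Gm37760 (0.925), and for Bmf Accs (0.901) and Gm43684 (0.889). Gm17244 and Gm37760 are themselves low, at a mean of 0.141 and 0.247 CPM.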
